A study of Mus musculus with 9 samples.

Results

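Hippocampal RNA was compared between aged mice that had eaten a yellow soybean extract for most of their life and mice on a control diet. The comparison holds 6 of the 9 arrays of the study, 3 titled yellow soybean and 3 titled control, chosen by those titles alone. All arrays come from male mice of the strain SAMP10/TaSlc, a senescence-accelerated inbred line known for early brain ageing, so the controls share that background. Both diets were built on the CE-2 chow. The yellow diet contained 3.0% extract and was fed from 1 to 12 months of age, and the control arrays are labelled only as a control diet. Cages held 6 mice each, and the study ran 5 diets with 12 mice apiece. The labels do not state if the RNA on an array was that of 1 mouse or of several, that the arrays came from separate mice, or from which cage, so cage and diet cannot be told apart and the p-values measure only the spread between these arrays, which may be technical. The sample titles read SMP30 where the strain label reads SAMP10, and the strain label was followed.

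The hippocampus is the part of the cortex that lays down memories of places and events. Its main neurons are pyramidal neurons and the granule neurons of the dentate gyrus, set among interneurons, astrocytes, oligodendrocytes, microglia and vessels. In SAMP10 mice, learning declines early, and the brain shrinks with age. Soybean supplies isoflavones, which can bind oestrogen receptors, besides protein, saponins and other compounds. The title of the series points to memory loss and amyloid beta build-up as the traits studied, and the design asks which transcripts differ after the extract.

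The unit throughout is a z-type normalized score made by the authors, with 1 number per probe set and array. A higher score means more signal, and every difference below is the yellow soybean mean minus the control mean in units of that score, with its standard error (SE) from 3 arrays per diet. The logarithm behind the score is not stated, so no fold change is given. For scale, the means of the uncentred probe sets over the 6 arrays ran from -0.698 to 3.26, with a median of 0.163, and the median SE of a difference was 0.0547. The table holds 34760 probe sets, 6573 of them control-type. Of the other 28187, 22228 entered the test because none of the 6 arrays lacked a score for them, and 5959 held an exact 0, read as no value, on at least 1 array. Among those tested, 20881 are called uncentred here. The other 1347 had been centred by the authors so that the control mean is 0. These centred probe sets show a difference but no level, and they are the ones with the authors' deposited p below 0.005. Exact zeros made up 12.6% to 14.4% of the probe sets on the control arrays and 14.5% to 16.1% on the yellow arrays. Each array correlated with the other 5 at a mean r between 0.979 and 0.984.

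No probe set differed between the diets at an adjusted p below 0.05 (0% of 22228 tested, limma with Benjamini-Hochberg adjustment). The smallest adjusted p was 0.206, reached by a probe set named for Uqcrb. Without adjustment, 997 probe sets had a p below 0.05 (4.49%), of which 696 were higher with yellow soybean (3.13%) and 301 lower (1.35%). All 3 yellow arrays lay above all 3 controls in 1477 probe sets (6.64%) and below them in 596 (2.68%). Among the uncentred probe sets alone, 879 had an unadjusted p below 0.05 (4.21%), 590 higher (2.83%) and 289 lower (1.38%), and the arrays did not overlap in 1318 upwards (6.31%) and 564 downwards (2.7%). These counts lean upwards, and so did the arrays as a whole. The median score of the uncentred probe sets was 0.147 to 0.162 on the control arrays and 0.170 to 0.176 on the yellow arrays, and 60.4% of all differences were above 0 (59.9% among the uncentred), with a median difference of 0.0140. With the array medians aligned, the split at an unadjusted p below 0.05 turned to 393 higher and 519 lower, and with quantile normalization it was 506 and 456. The direction of this imbalance therefore depends on the scaling.

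Uncentred probe sets at an unadjusted p below 0.05 were found mostly among the dim ones. When the uncentred probe sets were split by mean score into 4 groups of nearly equal size, 251 of the dimmest group were higher and 179 lower at an unadjusted p below 0.05. In the brightest group the counts were 44 and 16, with a median SE of 0.0519 against 0.0626 in the dimmest. Of the 20 probe sets with the smallest p, 11 lay below the median level, 10 carried 1 gene symbol, 1 carried several and 9 carried none. Of the top 100, 55 carried 1 symbol and 40 none, and 68 were higher. The genes below are those with 1 symbol only.

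**Figure D1:**
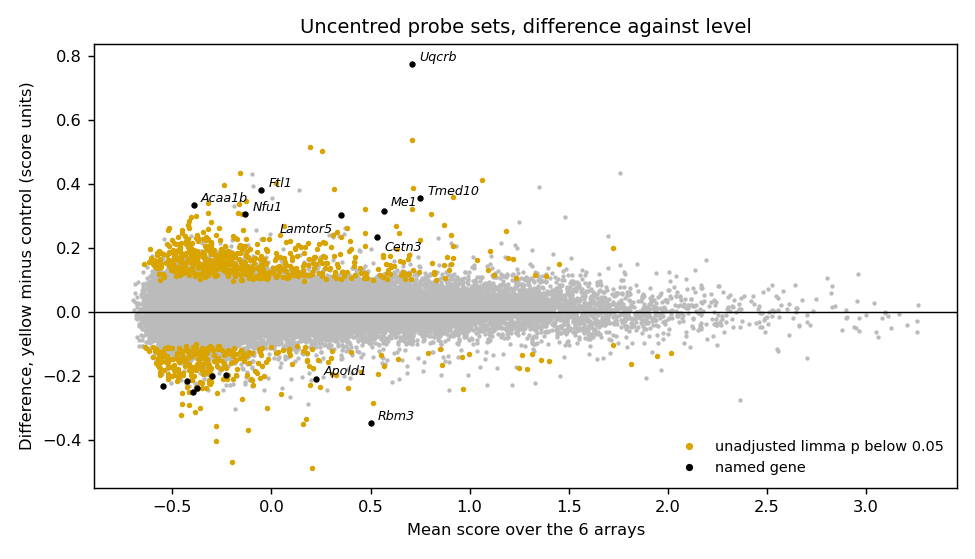
Difference between the diet means in score units against the mean score over the 6 arrays, for the 20881 uncentred probe sets. Coloured points have an unadjusted limma p below 0.05, and black points are the 16 named uncentred genes, of which the 8 higher ones, Rbm3 and Apold1 are labelled. Uqcrb stands highest at 0.774.

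By their symbols, the 8 uncentred genes ranked first upwards span mitochondrial respiration, iron handling, redox supply, secretion, nutrient sensing and fatty acid breakdown. For Uqcrb, Tmed10, Me1 and Nfu1, a brighter probe set of the same gene lay near 0, as described below. The leading probe sets of Uqcrb, Ftl1, Me1 and Nfu1 are numbered among another chromosome than their gene, and which transcript they detect was not tested. Uqcrb, which encodes a subunit of respiratory complex III, scored 0.292, 0.324 and 0.344 on the control arrays and 1.08, 0.904 and 1.30 on the yellow arrays. Every yellow array lay well above every control, and the difference was 0.774 (SE 0.0870, unadjusted limma p 9.25e-06, adjusted p 0.206). It passed the threshold in 2 alternatives, with limma's intensity trend (adjusted p 0.0323) and without yellow replicate 2 (adjusted p 0.0249, difference 0.868).

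Tmed10 encodes a cargo receptor of the p24 family that cycles between endoplasmic reticulum and Golgi and is also known to bind the gamma-secretase complex, which releases amyloid beta. Its leading probe set scored 0.640, 0.538 and 0.535 on the controls and 0.985, 0.834 and 0.960 on the yellow arrays, a difference of 0.356 (SE 0.0564). The diets did not overlap. Ftl1, the light chain of the iron store ferritin, scored -0.349, -0.182 and -0.198 on the controls and 0.105, 0.218 and 0.0891 on the yellow arrays, a difference of 0.380 (SE 0.0606). Here too all yellow arrays were higher, from a level below 0 to one above it.

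Me1 encodes the cytosolic malic enzyme, which makes NADPH for lipid synthesis and antioxidant defence. It scored 0.337, 0.385 and 0.506 on the controls and 0.710, 0.724 and 0.737 on the yellow arrays, a difference of 0.314 (SE 0.0534). The yellow arrays were close together and above the highest control. Lamtor5, a subunit of the Ragulator complex that anchors mTORC1 to the lysosome, scored 0.140, 0.156 and 0.300 on the controls and 0.483, 0.503 and 0.523 on the yellow arrays, a difference of 0.304 (SE 0.0539). Nfu1, which carries iron-sulfur clusters to mitochondrial enzymes, scored -0.372, -0.297 and -0.186 on the controls and 0.0548, 0.0170 and -0.0106 on the yellow arrays, a difference of 0.305 (SE 0.0561). Neither gene had any overlap between the diets.

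Cetn3, a centrin of the centriole, scored 0.382, 0.401 and 0.460 on the controls and 0.644, 0.655 and 0.646 on the yellow arrays, with a difference of 0.234 (SE 0.0441). Its 3 yellow arrays nearly coincide. Acaa1b, a peroxisomal thiolase that completes a round of fatty acid oxidation, was dim on all arrays, with -0.698, -0.576 and -0.403 on the controls and -0.204, -0.284 and -0.188 on the yellow arrays. The difference was 0.333 (SE 0.0731). Beyond Uqcrb, the 7 other genes had adjusted p-values from 0.797 upwards, so none of them was called.

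The 8 uncentred genes ranked first downwards include an antigen-processing enzyme, a cold-responsive RNA-binding protein and an enzyme that cleans the nucleotide pool. Erap1 trims peptides in the endoplasmic reticulum for display on class I molecules. It scored -0.256, -0.315 and -0.239 on the controls and -0.459, -0.531 and -0.572 on the yellow arrays, a difference of -0.251 (SE 0.0491). All yellow arrays were lower, on a dim probe set. Rbm3, an RNA-binding protein induced by mild cold and linked in mice to the upkeep of synapses, scored 0.747, 0.628 and 0.647 on the controls and 0.225, 0.468 and 0.290 on the yellow arrays. Its difference was -0.346 (SE 0.0680), the widest of the 8, and the diets did not overlap.

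Apold1, an early-response gene of vessel endothelium, scored 0.319, 0.318 and 0.354 on the controls and 0.125, 0.118 and 0.126 on the yellow arrays, a difference of -0.207 (SE 0.0419). The spread within each diet was small beside that gap. Nudt1 hydrolyses oxidised purine nucleotides before they enter DNA. It scored -0.279, -0.379 and -0.297 on the controls and -0.537, -0.490 and -0.577 on the yellow arrays, a difference of -0.217 (SE 0.0489). Nudt1 was dim, as were the other 4. Spata21, named for spermatogenesis, differed by -0.236 (SE 0.0479), Pbp2, a phosphatidylethanolamine-binding protein, by -0.231 (SE 0.0547), Pnma3, a paraneoplastic antigen gene, by -0.195 (SE 0.0473), and Chaf1a, the large subunit of a chromatin assembly factor, by -0.200 (SE 0.0524). None of the 8 was called (adjusted p 0.871 or higher). All 16 uncentred genes kept their direction in every alternative in which they were tested. Their diets did not overlap, so leaving out 1 array could not turn a difference, and this is no independent check.

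**Figure D2:**
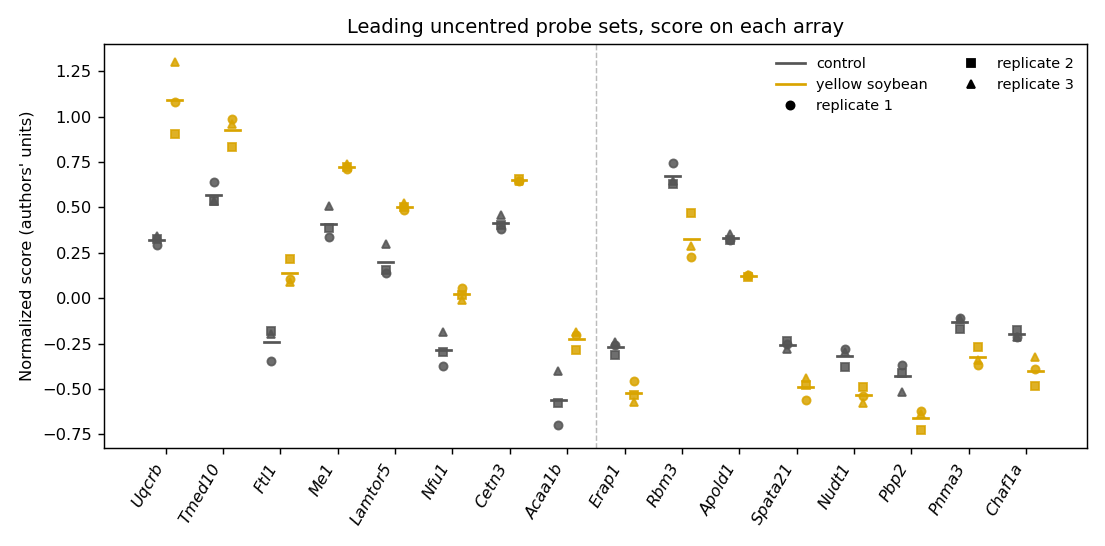
Normalized score on each of the 6 arrays for the 16 named uncentred genes, 8 higher and 8 lower with yellow soybean. Symbols give the replicate number and short lines the mean of 3 arrays. The diets do not overlap for any of these genes, which is how genes ranked by p come to look, and Uqcrb has the widest gap, from at most 0.344 to at least 0.904.

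Several of these genes are measured by more than 1 probe set, and in 4 of 5 such genes with a single symbol the other probe sets lay near 0. Uqcrb had a brighter one at 1.70, 1.89 and 2.02 on the controls and 1.88, 1.79 and 1.97 on the yellow arrays, a difference of 0.00714 (SE 0.0813). A centred one differed by -0.0135 (SE 0.0647). The other probe set of Me1 differed by -0.0292 (SE 0.0460), that of Nfu1 by 0.0229 (SE 0.0553) and that of Tmed10 by 0.0134 (SE 0.0426), and all 3 had higher scores than the leading one. So the upward difference of these 4 genes was seen on 1 of their probe sets only. Rbm3 is the exception, since its centred probe set was lower too, at 0.0994, 0.000440 and -0.0998 on the controls and -0.100, -0.0993 and -0.152 on the yellow arrays (difference -0.117, SE 0.0574). Those arrays overlapped slightly. Ftl1 shares 2 further tested probe sets with other genes, and these differed by 0.0748 and 0.0786.

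The position of the probe sets on the array's numbering was then compared with the genes' chromosomes, a comparison chosen after these values were seen. Numbers on this array run along the chromosomes, and a probe set was counted as lying elsewhere when at least 80% of the 10 named probe sets on each side of it belonged to another chromosome than its gene (chromosomes from RefSeq, GRCm38.p6). This held for 2.93% of the 17673 probe sets that could be placed, for 4.78% of those at an unadjusted p below 0.05 and for 11% of those below 0.01. Of the 11 below 0.001, 5 lay elsewhere, 45.5%. They are Uqcrb, a gene of chromosome 13 whose leading probe set is numbered among chromosome 1, Ftl1 (chromosome 7, numbered among 17), Me1 (9, among 13), Nfu1 (6, among 15) and Rbm3 (X, among 7). The brighter Uqcrb probe set and the other ones of Me1, Nfu1 and Rbm3 lie among their own chromosomes, but the centred Uqcrb probe set, which was flat, lies elsewhere too, among chromosome 14. Tmed10 runs the other way, with its leading probe set among its own chromosome 12 and the flat one among chromosome 13.

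Over all uncentred probe sets that could be placed, the measures did not all go the same way. The 489 that lie elsewhere had an unadjusted p below 0.05 in 6.34% and the others in 3.41%. All 3 yellow arrays lay above the controls in 4.29% of them against 6.26% of the others, and below in 3.07% against 2.5%. The 489 were also brighter, with a median score of 0.702 against 0.207, and the shares were not compared at like level. Of 301 genes with both kinds, the one lying elsewhere had the larger difference in 158. Which transcript the probe sets lying elsewhere detect was not tested. The 6 genes of the top 11 that lie among their own chromosomes are Tmed10, Lamtor5, Cetn3, Erap1, Apold1 and Spata21.

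**Figure D3:**
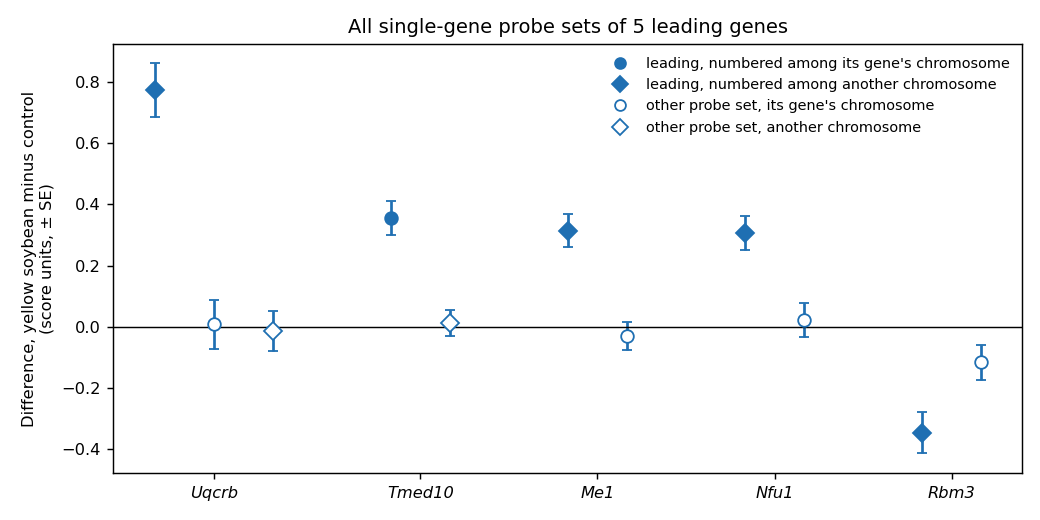
Difference between diets with its SE (score units) for every tested single-gene probe set of Uqcrb, Tmed10, Me1, Nfu1 and Rbm3. Filled symbols are the leading probe sets and open symbols the others, diamonds are probe sets numbered among another chromosome than their gene. The open symbols of the first 4 genes lie near 0, and that of Rbm3 lies at -0.117.

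Among the 1347 centred probe sets, 118 had an unadjusted p below 0.05 (8.76%), 106 higher (7.87%) and 12 lower (0.891%). All yellow arrays lay above all controls in 159 of them (11.8%) and below in 32 (2.38%), and 67.3% of the differences were above 0. The authors' p that marks them may rest on these same arrays, so this share is a description of the class. The genes ranked first upwards were Lpar3, Fggy, Tmem217 and Inhba. Lpar3, a receptor for lysophosphatidic acid, stood at 0.00716, 0.0384 and -0.0455 on the controls and 0.198, 0.204 and 0.318 on the yellow arrays (difference 0.240, SE 0.0513). Inhba, which encodes the subunit of activin A and is induced by activity in hippocampal neurons, stood at -0.0838, 0.0732 and 0.0106 on the controls and 0.346, 0.140 and 0.286 on the yellow arrays (difference 0.257, SE 0.0653). Both genes had all yellow arrays above the controls. Fggy, a carbohydrate kinase, differed by 0.314 (SE 0.0718), while its 4 other probe sets ran from -0.0772 to 0.0778. Tmem217, a membrane protein, differed by 0.190 (SE 0.0465).

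Downwards, the centred genes ranked first were Sfmbt1, Junb, Ddit4 and Adamts3. Junb, a member of the AP-1 transcription factors, stood at -0.0919, 0.0263 and 0.0656 on the controls and -0.120, -0.209 and -0.157 on the yellow arrays (difference -0.162, SE 0.0546). Ddit4 encodes REDD1, an inhibitor of mTORC1 that stress hormones and low oxygen induce. It stood at 0.0289, -0.0818 and 0.0528 on the controls and -0.209, -0.124 and -0.128 on the yellow arrays (difference -0.154, SE 0.0529). In both genes all yellow arrays were below all controls, by a small margin. Sfmbt1, a chromatin protein of the polycomb group, differed by -0.169 (SE 0.0451) and its other probe set by 0.0314. Adamts3, a protease that processes procollagen, differed by -0.126 (SE 0.0469), and its 15 other probe sets ranged from -0.163 to 0.0845. None of the 8 centred genes was called.

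Gene lists were described by counts and medians, with 1 probe set per gene, beside the 60.4% of all probe sets that were higher and their median of 0.0140. No list was tested as a set, and no member of any list was called. Of the 45 lists, 33 had a median of the other sign in at least 1 alternative. The endoplasmic reticulum is where secreted and membrane proteins fold. When unfolded proteins build up there, the sensors IRE1 (Ern1), PERK (Eif2ak3) and ATF6 raise chaperones through the factors XBP1, ATF4 and ATF6. Promoters of many of the chaperone genes carry the endoplasmic reticulum stress response element, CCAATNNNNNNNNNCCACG, which is known to be bound by ATF6 together with NF-Y. In RefSeq's table of promoters (GRCm38.p6), this element was present on either strand in 37 of 32851 windows of 250 bases upstream of a gene's start (0.113%), and in 6 of the 20 list genes that have a window. It was the only motif searched, and it was chosen after the counts of the list were seen. The 6 are Hspa5, Calr, Hsp90b1, Pdia6, Dnajc3 and Creld2. The windows of Hspa5, the best known of these chaperones, and of Pdia6 and Creld2 are shown 5′ to 3′ on the strand of the gene, with the element in capitals, since the values of these genes follow. A match describes these letters only.
Hspa5, chr2:34771840-34772089, plus strand: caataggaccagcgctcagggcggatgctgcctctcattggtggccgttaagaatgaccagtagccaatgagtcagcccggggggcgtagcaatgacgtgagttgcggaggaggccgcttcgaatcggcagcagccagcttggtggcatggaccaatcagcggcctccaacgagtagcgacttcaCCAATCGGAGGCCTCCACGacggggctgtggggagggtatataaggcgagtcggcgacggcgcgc
Pdia6, chr12:17266339-17266588, plus strand: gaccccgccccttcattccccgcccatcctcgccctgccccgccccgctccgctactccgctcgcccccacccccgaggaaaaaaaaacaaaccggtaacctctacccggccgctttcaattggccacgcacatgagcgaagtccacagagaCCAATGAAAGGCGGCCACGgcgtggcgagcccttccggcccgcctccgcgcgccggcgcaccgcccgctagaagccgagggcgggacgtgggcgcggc
Creld2, chr15:88819396-88819645, plus strand, element on the opposite strand: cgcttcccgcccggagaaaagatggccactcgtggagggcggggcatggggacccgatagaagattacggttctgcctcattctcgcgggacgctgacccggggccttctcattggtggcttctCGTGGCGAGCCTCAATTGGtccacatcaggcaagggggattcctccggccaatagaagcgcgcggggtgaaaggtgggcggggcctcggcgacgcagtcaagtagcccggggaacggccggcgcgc

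Of the 23 endoplasmic reticulum stress genes, all measured, 21 were higher with yellow soybean (91.3%) and 2 lower, with a median difference of 0.0580. Of these, 3 were higher at an unadjusted p below 0.05 (13%, against 3.13% of all probe sets), and 4 had all yellow arrays above all controls (17.4%, against 6.64%). The 3 are Xbp1, Manf and Creld2, all of them centred. In the centred class as a whole, 7.87% were higher at that p and 11.8% had all yellow arrays above all controls. Of the 17 uncentred members, 15 were higher (median 0.0400), none of them at that p. The upward direction of the list was known from earlier results of these data when it was drawn, so it is no independent evidence. The transcription factor gene Xbp1 (centred) stood at -0.121, -0.0341 and 0.155 on the controls and 0.432, 0.0533 and 0.371 on the yellow arrays, a difference of 0.285 (SE 0.104). Yellow replicate 2 lay within the control range. Manf, a secreted survival factor of the reticulum, stood at -0.0536, -0.0243 and 0.0779 on the controls and 0.224, 0.0682 and 0.209 on the yellow arrays (difference 0.167, SE 0.0591). Creld2, a resident of the reticulum, stood at -0.0297, -0.00250 and 0.0322 on the controls and 0.148, 0.0869 and 0.130 on the yellow arrays (difference 0.122, SE 0.0445), with no overlap.

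The chaperones varied along with the arrays. Hspa5 (centred) encodes BiP, the main chaperone of the reticulum. It stood at -0.167, -0.0137 and 0.181 on the controls and 0.162, 0.0607 and 0.235 on the yellow arrays, a difference of 0.153 (SE 0.0856) with overlapping diets. Pdia6, a protein disulfide isomerase, differed by 0.100 (SE 0.0829), Hsp90b1, the chaperone GRP94, by 0.0693 (SE 0.0848) and Calr, calreticulin, by 0.0357 (SE 0.0742), while Sdf2l1, a partner of BiP, differed by 0.170 (SE 0.0853) without overlap. The sensors differed by 0.0613 for Eif2ak3 (SE 0.0464), 0.0411 for Atf6 (SE 0.0427) and -0.00743 for Ern1 (SE 0.0444). Pdia4 has 2 probe sets that disagree, a dim uncentred one at -0.200 (SE 0.0895) and a centred one at 0.199 (SE 0.0616). The first of them is counted in the list by the rule that favours uncentred probe sets.

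Control replicate 1 was the lowest control in 18 of the 23 genes and control replicate 3 the highest in 18, and yellow replicate 3 was the highest yellow array in 15. Without control replicate 1, 16 of the 23 were higher, and the median was 0.00825, below the 0.0149 of all probe sets in the same fit. Without yellow replicate 3, 17 were higher, as with the array medians aligned. The part of single arrays in the list's direction goes no further than these counts. The genes of transport between reticulum and Golgi lay higher too, in 24 of 27, but by a small amount (median 0.0201), and 16 of 27 did so with the array medians aligned. Control replicate 3 was the highest control in 21 of them and yellow replicate 3 the highest yellow array in 20. Ssr2, of the translocon-associated complex, differed by 0.113 (SE 0.0622) and Tmed9, another p24 protein, by 0.0994 (SE 0.0517). Of 16 heat shock genes of the cytosol and mitochondria, 10 were higher, with a median of 0.0110. That count was 14 (median 0.0703) without control replicate 3, the highest control in 14 of them, and 6 (median -0.0310) without control replicate 1.

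**Figure D4:**
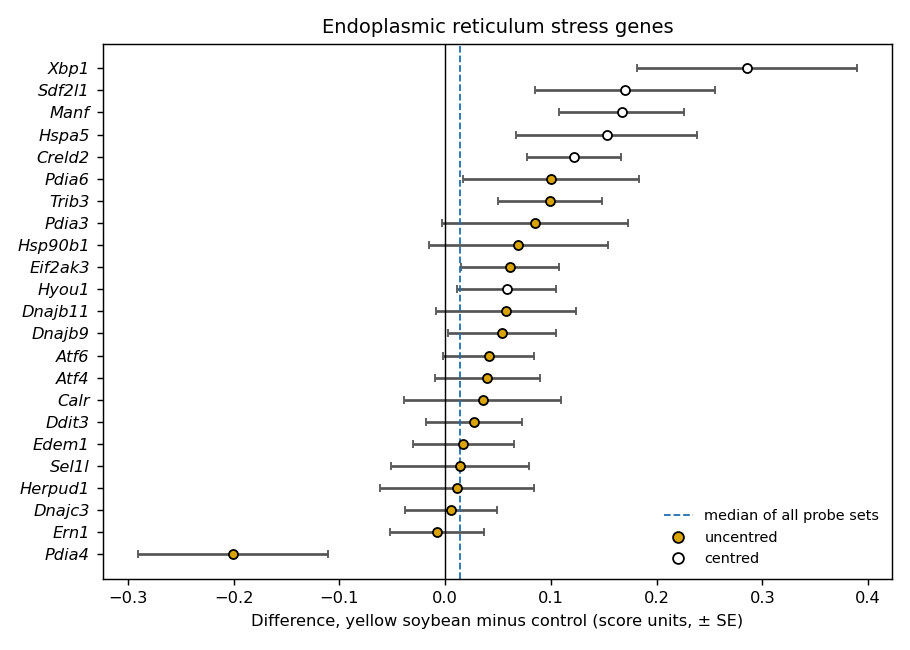
Difference between diets with its SE (score units) for the 23 endoplasmic reticulum stress genes, ordered by size. Filled points are uncentred and open points centred probe sets, and the dashed line marks the median of all probe sets at 0.0140. The points run from Pdia4 at -0.200 to Xbp1 at 0.285, and 21 of them lie above 0.

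Of 16 genes that respond to glucocorticoids, 6 were higher and 10 lower, with a median of -0.0511. The split was even without control replicate 3, at 8 of 16 (median -0.00231), and among the uncentred ones, at 5 of 10 (median -0.0158). Ddit4 was the only one at an unadjusted p below 0.05. Sgk1 (centred) encodes a kinase induced by the hormone. It stood at -0.0228, -0.155 and 0.178 on the controls and -0.142, -0.191 and -0.148 on the yellow arrays (difference -0.160, SE 0.0771), and the diets overlapped because of control replicate 2. The receptor Nr3c1 differed by 0.0380 (SE 0.0450). Among genes induced by neuronal activity, 13 of 23 were higher with a median of 0.0140, but control replicate 1 was the lowest control in 22 of them and yellow replicate 2 the lowest yellow array in 17. Without control replicate 1, 8 of 23 were higher and the median was -0.0907, whereas with every array kept 10 of the 12 uncentred ones were higher. Within that list Junb and Fos were lower, the latter with a difference of -0.150 (SE 0.0716), while Bdnf, a neurotrophin, differed by 0.0946 (SE 0.0598) and Nptx2, a synaptic pentraxin, by 0.133 (SE 0.0827).

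Genes of the amyloid pathway showed little difference. The precursor App (centred) stood at -0.106, 0.0737 and 0.0320 on the controls and 0.0268, -0.106 and -0.0227 on the yellow arrays, a difference of -0.0340 (SE 0.0605). Of 17 measured genes that make or cut the precursor, 9 were higher, and none had an unadjusted p below 0.05. The range ran from -0.0457 for Psen2, a catalytic subunit of gamma-secretase, to 0.126 for Aplp1, a relative of the precursor, whose SE was 0.357. Of 18 genes of amyloid clearance, 9 were higher. Mmp9, a matrix protease, was dim and scored -0.338, -0.310 and -0.306 on the controls and -0.162, -0.239 and -0.125 on the yellow arrays (difference 0.143, SE 0.0473), with no overlap. Ttr, the thyroxine carrier made by the choroid plexus, had the widest difference of the list at 0.392, but its SE was 0.330 and its controls ran from 0.446 to 1.78. Apoe, the main lipid carrier of the brain, differed by -0.0634 (SE 0.0446).

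Of 24 respiratory chain genes, a list that does not hold Uqcrb, 17 were higher, with a median of 0.0139 and none at an unadjusted p below 0.05. Without yellow replicate 3, 7 of the 24 were higher (median -0.0395), and without control replicate 3, 21 (median 0.0531). Ndufa2, a subunit of complex I, differed by 0.118 (SE 0.0558) without overlap. Of 15 iron-handling genes, 11 were higher, among them Ftl1, by its leading probe set, and Steap3, an iron reductase, at 0.114 (SE 0.0539). Of 12 genes that supply NADPH, 7 were higher. Me2, the mitochondrial malic enzyme, scored 0.219, 0.134 and 0.241 on the controls and 0.310, 0.314 and 0.305 on the yellow arrays (difference 0.112, SE 0.0465), and by the brightest probe set Me1 is counted among the lower ones. In the list of peroxisomes and fatty acid oxidation, 13 of 21 were higher. Acaa1a, the close relative of Acaa1b, differed by 0.0853 (SE 0.0452), and Acot1, a thioesterase that frees fatty acids from coenzyme A, by -0.202 (SE 0.0592).

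Of 25 antioxidant genes, 16 were higher. Gpx1, glutathione peroxidase, differed by 0.118 (SE 0.0586), Hmox1, haem oxygenase, by 0.0689 (SE 0.0450) and Nqo1, a quinone reductase, by -0.119 (SE 0.0633). Nudt1, on its dim probe set, was the only member at an unadjusted p below 0.05. Of 13 oestrogen receptor genes and targets, 7 were higher, with -0.0545 (SE 0.0448) for the receptor Esr1 and 0.0619 (SE 0.0447) for the coactivator Ncoa3. No member of the lists for presynaptic release (8 of 17 higher), postsynaptic glutamate signalling (8 of 17), GABA receptors (8 of 12), growth factors (5 of 12), glycolysis (8 of 16), sterol and fatty acid synthesis (13 of 21), the clock (10 of 18) or lysosomes (14 of 18) had an unadjusted p below 0.05. Among 17 complement and inflammation genes, 9 were higher. Lcn2, an acute-phase protein, had the widest difference of any list member at -0.628, with an SE of 0.326 and controls from -0.889 to 0.764. Of 16 class I and interferon genes, 10 were higher, and Psmb9, an immunoproteasome subunit, differed by 0.0949 (SE 0.0488), against -0.251 for Erap1. Ribosomal proteins were higher in 33 of 55 and proteasome subunits in 21 of 38.

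**Figure D5:**
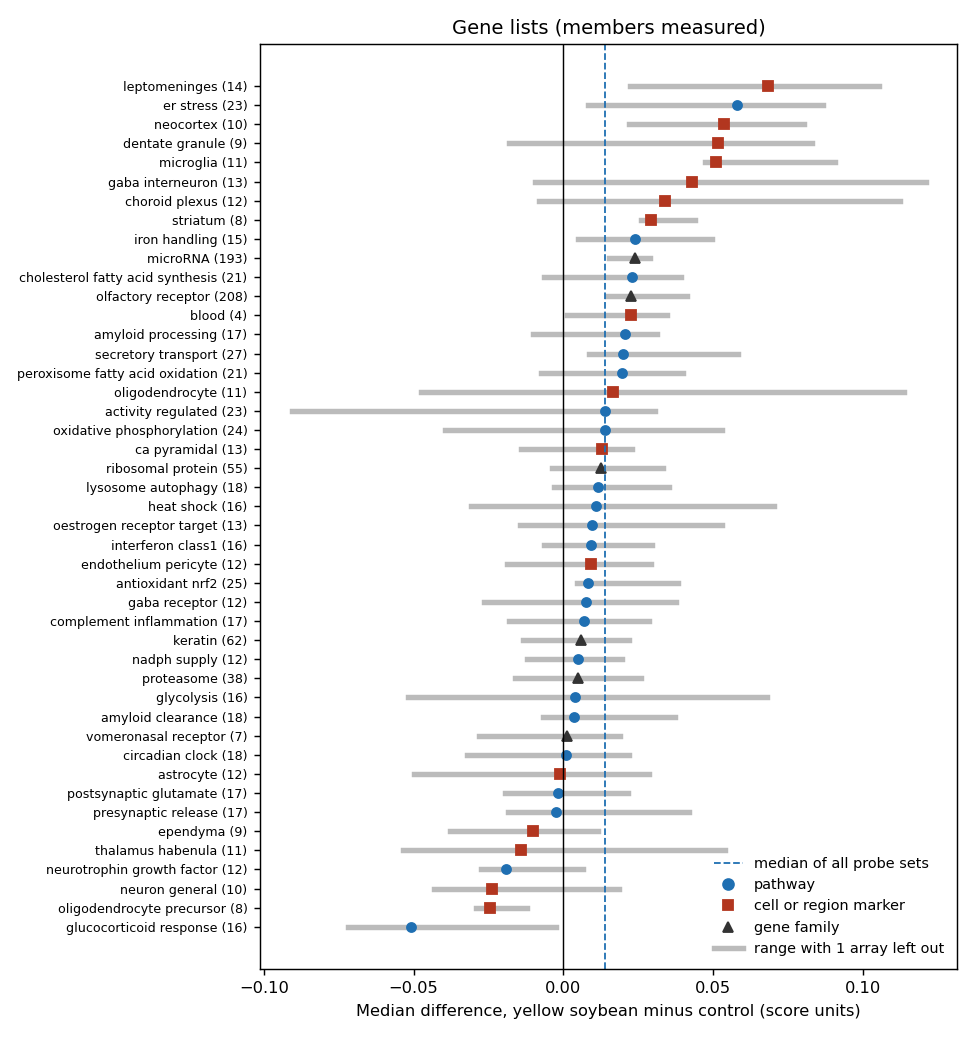
Median difference between diets (score units) for 45 gene lists, with the number of members measured in brackets and bars for the range when 1 array is left out. The dashed line is the median of all probe sets at 0.0140. The list medians run from -0.0511 for the glucocorticoid list to 0.0685 for leptomeninges, and many bars cross 0.

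Markers of cell types were read as a check of the tissue and of its make-up. In bulk RNA, fewer cells of a type and less RNA per cell cannot be told apart. The labelled hippocampus was checked against its markers. The mean over 13 markers of pyramidal neurons lay between 0.777 and 0.822 on the 6 arrays and that over 8 uncentred markers of dentate granule neurons between 0.554 and 0.726. Neocortical markers, between 0.538 and 0.679, and uncentred striatal ones, between 0.450 and 0.546, were measured as well, so these scores do not tell the hippocampus from tissue beside it. Pyramidal markers were higher in 7 of 13 (median 0.0131), general neuron markers in 4 of 10 (-0.0239), dentate markers in 7 of 9 (0.0518) and interneuron markers in 11 of 13 (0.0430), with no member at an unadjusted p below 0.05 in these lists. Without single arrays the dentate median ranged from -0.0183 to 0.0830 and the interneuron median from -0.00936 to 0.121. Tdo2 of the dentate list had an exact 0 on 1 yellow array and no difference.

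Microglia markers were higher in 9 of 11, with a median of 0.0511, and 4 had all yellow arrays above all controls (36.4%, against 6.64% of all probe sets). Aif1, which encodes the calcium-binding protein IBA1, scored -0.304, -0.344 and -0.395 on the controls and -0.292, -0.175 and -0.226 on the yellow arrays (difference 0.116, SE 0.0501). Cx3cr1, the fractalkine receptor, scored 0.705, 0.661 and 0.529 on the controls and 0.751, 0.721 and 0.737 on the yellow arrays (difference 0.105, SE 0.0544). In both, the lowest yellow array lay just above the highest control. Itgam, an integrin of the same cells, differed by -0.105 (SE 0.0535). The mean of the 10 uncentred markers lay between 0.282 and 0.361 on the controls and between 0.351 and 0.362 on the yellow arrays, which overlap. Control replicate 1 was the highest control in 8 of the 11, and without it the median was 0.0908.

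Markers of tissue next to the hippocampus varied from array to array. Leptomeningeal markers were higher in 10 of 14 (median 0.0685), but their 8 uncentred ones had a median of 0.00332 and a mean between -0.0812 and 0.0890 on the controls and -0.0125 and 0.121 on the yellow arrays. Choroid plexus markers were higher in 7 of 12 (median 0.0340), with a mean of the 10 uncentred ones between -0.208 and 0.0806 on the controls and -0.160 and 0.106 on the yellow arrays, following Ttr. Neocortical markers were higher in 8 of 10 (0.0537) and striatal ones in 6 of 8 (0.0293), whereas thalamic and habenular ones were higher in 3 of 11 (-0.0140) and ependymal ones in 2 of 9 (-0.0102). Gpr151, a habenular receptor, differed by -0.176 (SE 0.0644) without overlap. The part of these tissues in the other differences was not tested.

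Astrocyte markers were higher in 6 of 12 (median -0.00112), oligodendrocyte markers in 9 of 11 (0.0165), their precursors in 3 of 8 (-0.0246), and endothelial and pericyte markers in 7 of 12 (0.00919). Yellow replicate 1 was the highest yellow array in all 11 oligodendrocyte markers and yellow replicate 3 the lowest in 10. Without the former, 2 of 11 were higher (median -0.0475), and without the latter, 11 of 11 (median 0.114). Gfap, the astrocyte filament, differed by -0.0924 (SE 0.0533) and Aqp4, the water channel of astrocyte endfeet, by 0.115 (SE 0.0557). Kcnj8 (centred), a potassium channel subunit of pericytes, was the marker with the smallest p among these. It stood at -0.0410, -0.00555 and 0.0466 on the controls and 0.138, 0.144 and 0.180 on the yellow arrays (difference 0.154, SE 0.0453), all yellow arrays being higher. Blood markers with a difference numbered 4, of which 2 were higher, and S100a8 and Ngp had an exact 0 on 1 yellow array each.

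MicroRNAs are short RNAs that silence messenger RNAs by pairing through their seed, bases 2 to 8. The array holds probe sets named for their genes, and whether these detect a mature form or a precursor was not tested. Of 193 measured microRNA genes, 121 were higher (62.7%, median 0.0240), 11 of them at an unadjusted p below 0.05 (5.7%, against 3.13% of all probe sets), and 2 were lower at that level (1.04%, against 1.35%). With the array medians aligned, 101 were higher. Of the 193, 31 are centred, a class in which 7.87% of all probe sets were higher at an unadjusted p below 0.05. Of the 162 uncentred ones, 97 were higher (median 0.0193), beside 59.9% of all uncentred probe sets (median 0.0132), so the direction follows the background. The 2 genes with the smallest p in each direction were Mir677 and Mir9-1 upwards and Mir127 and Mir692-1 downwards. Their mature sequences, from RefSeq (GRCm38.p6) with the seed in capitals, share no seed.
mmu-miR-677-5p: uUCAGUGAugauuagcuucuga
mmu-miR-677-3p: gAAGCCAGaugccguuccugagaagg
mmu-miR-9-5p: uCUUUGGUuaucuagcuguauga
mmu-miR-9-3p: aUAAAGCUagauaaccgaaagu
mmu-miR-127-5p: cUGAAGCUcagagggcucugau
mmu-miR-127-3p: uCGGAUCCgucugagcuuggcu
mmu-miR-692: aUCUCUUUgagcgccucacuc

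Mir677 scored -0.208, -0.169 and -0.270 on the controls and -0.0350, -0.0704 and -0.0201 on the yellow arrays, a difference of 0.174 (SE 0.0466). Mir9-1, a gene of the abundant brain microRNA miR-9, scored 0.494, 0.402 and 0.508 on the controls and 0.641, 0.535 and 0.629 on the yellow arrays, a difference of 0.134 (SE 0.0518). In both, all yellow arrays were above the controls. Mir127, of an imprinted cluster on chromosome 12, scored 0.321, 0.395 and 0.380 on the controls and 0.172, 0.192 and 0.266 on the yellow arrays, a difference of -0.155 (SE 0.0478). Mir692-1 scored 0.927, 0.947 and 0.957 on the controls and 0.693, 0.921 and 0.724 on the yellow arrays, a difference of -0.164 (SE 0.0631). Both had all yellow arrays below the controls, for Mir692-1 by little. None of the 4 was called.

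Gene families that the hippocampus is not known for were counted too. Of 208 olfactory receptors, 130 were higher (62.5%). At an unadjusted p below 0.05, 14 were higher (6.73%, against 3.13% of all probe sets) and 7 lower (3.37%, against 1.35%). The receptors are dim, however, with a mean of the 197 uncentred ones between -0.471 and -0.417 on the yellow arrays. In the dimmest group of all uncentred probe sets, 251 of 5221 were higher and 179 lower, so the shares of all probe sets are not at like level. Of 62 keratins and keratin-associated genes, 36 were higher. Olfr1174 (centred), the olfactory receptor with the smallest p upwards, differed by 0.234 (SE 0.0492), the same size as the uncentred Cetn3. Olfr414 was lower on all yellow arrays, with -0.374, -0.369 and -0.361 on the controls and -0.537, -0.575 and -0.603 on the yellow arrays (difference -0.204, SE 0.0431).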

How the data were processed

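Hippocampal total RNA was turned into biotinylated cRNA for 1-colour Affymetrix arrays, per the labels' protocols. The authors deposited a normalized score per probe set and array, for which the labels name the SuperNORM data service. Its further steps and its log base were not given in the sources used here. A deposited p-value per probe set served only to describe the centred class (at most 0.00497 inside it, at least 0.00501 outside it, none for 421 uncentred probe sets) (its test was not given in the sources used here). In all, 18 array columns were left out because their names fit no sample label, 9 of scores in the same table and 9 of normalization parameters.

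Groups follow the sample titles. Probe sets with no exact 0 on the 6 arrays were fitted with limma 3.58.1 in R 4.3.3 (lmFit and eBayes without a trend, 2-sided, no covariates, spread from these 6 arrays), with Benjamini-Hochberg adjustment over all 22228. The fit was tested on simulated data. Precision is limited by having 3 arrays per diet, with a median SE of 0.0547 for a difference. Named genes are the 8 per direction with the smallest p among uncentred and the 4 per direction among centred probe sets that carry 1 gene symbol, in which clone and gene-model names, olfactory and vomeronasal receptors and keratins were passed over. In each list the 2 smallest p per direction and members of pathway lists may be named. Symbols come from the platform annotation. In a list, the brightest uncentred probe set stands for a gene, or a centred one where there is no other. Of 627 genes in the 39 pathway and marker lists, 562 were measured, and 6 families were taken by symbol. The members and lists were chosen with earlier results of these data known. Alternatives covered the spread, the filter, the scaling, the variance model, array weights, the replicate block and each array left out. Replicate numbers in the titles did not pair the arrays (see the closing section). Green soybean arrays entered only 2 alternatives.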

Additional observations from a re-analysis of the deposited data

How the results depend on the processing

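Depth and pooling of the arrays are not known, and 3 arrays per diet limit every statement here. The number of probe sets called was 0 in the reported fit and 1 with an intensity trend, and it ranged from 0 to 1 with 1 array left out. The probe set called was Uqcrb's (adjusted p 0.0323 with the trend and 0.0249 without yellow replicate 2). In the other alternatives none was called, with smallest adjusted p-values between 0.0987 and 1.00. The 997 probe sets at an unadjusted p below 0.05 were 274 when only brighter uncentred probe sets were tested, which are fewer (210 higher, 64 lower), and ranged from 763 to 1634 with 1 array left out (474 to 1180 higher, 236 to 454 lower), the highest counts being those without yellow replicate 2. Array scaling moved the share of higher probe sets among these from 69.8% to 43.1% with medians aligned (393 higher, 519 lower) and to 52.6% with quantile normalization (456 lower), and the median of all differences from 0.0140 to -0.00386 and -0.000782. Over all 9 arrays the counts were 471 and 211. All 24 named genes kept their direction in each alternative that tested them. They were ranked on these values and had no overlap between the diets, so leaving out 1 array could not turn them. Of 760 alternative list medians, 744 moved by less than the spread between arrays. That spread is the pooled SD of each list's mean within a diet, so lists that vary widely between arrays were hardly counted as moved. The oligodendrocyte median, with a spread of 0.126, ran from -0.0475 to 0.114 without being counted, so the 744 do not measure stability. The medians that moved more were those of neurotrophins (-0.0369 with medians aligned), oligodendrocyte precursors (-0.0425 aligned, -0.0428 quantile) and microRNAs (0.00612 aligned, 0.00618 quantile). With 1 array left out, medians ranged from -0.0274 to 0.00650 for neurotrophins, -0.00753 to 0.0399 for peroxisomes, -0.0146 to 0.0532 for oestrogen targets, -0.0141 to 0.0228 for pyramidal neurons, -0.0498 to 0.0286 for astrocytes, 0.0473 to 0.0908 for microglia and -0.0537 to 0.0539 for thalamus. Of 45 lists, 33 took the other sign in at least 1 alternative. The 12 lists that kept their sign include endoplasmic reticulum stress (0.00825 to 0.0867), glucocorticoid response (-0.0721 to -0.00231), reticulum transport (0.00221 to 0.0585) and microglia. Olfactory receptors, microRNAs and blood markers are among the 12 as well, so a kept sign does not set a list apart. Without control replicate 1, the reticulum stress median of 0.00825 lay below the 0.0149 of all probe sets. The cause of these shifts was not tested. With the replicate number as a block (replicate block), 0 probe sets were called and 1054 had an unadjusted p below 0.05. Deviations of same-numbered arrays from their diet means correlated at -0.0729, -0.0791 and 0.150, so the numbers were not taken to pair the arrays.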

Other observations

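Exact zeros, which have no difference, were not even between the diets. Of the probe sets that are not control-type, 49 had a score on all 3 control arrays and an exact 0 on all 3 yellow arrays, and 4 had the reverse pattern. The median of the mean control score among the 48 uncentred ones was -0.650, near the bottom of the scale, and 36 of the 49 carry a symbol. Mir676 among them is centred by the authors and so has no level. Rag1, a recombinase gene of lymphocytes, had control scores between -0.560 and -0.529. The 4 others are Car6, a secreted carbonic anhydrase, Psg23, a pregnancy-specific glycoprotein, and 2 probe sets with several symbols. These genes were picked after their values were seen. Zeros were more frequent on each yellow array than on each control array, by the shares given with the arrays, and the part of this in the split was not tested.

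Among ribosomal proteins, the 2 genes with the smallest p upwards were Rpl32l and Rpl14. Rpl32l scored 0.443 ± 0.423 (SD, n = 3) on the controls and 0.979 ± 0.259 (SD, n = 3) on the yellow arrays. Rpl14 (centred) differed by 0.183 (SE 0.0689), and all other ribosomal proteins had an unadjusted p above 0.05. Vmn1r86, a vomeronasal receptor, differed by 0.205 (SE 0.0614).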
